A study of Mus musculus with 6 samples.

Results

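The 10 keratin genes described here are keratins of the periderm, of simple epithelia and of stressed epidermis: Krt4, Krt13, Krt8, Krt18, Krt7, Krt19, Krt6a, Krt6b, Krt16 and Krt17. They were taken by name, and every probe of each gene was found through the gene symbol of its transcript accession. This gave 12 probes of the 55681 on the array, and 10 of its 21368 named genes. Krt13 and Krt6b had 2 probes each, and the other genes had 1. Each gene is represented by its brightest probe unless a probe is named. The array held 43 other keratin genes.

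RNA of knockout epidermis and of wild-type littermate epidermis was hybridised together on each of 6 Agilent arrays in 2 colours, to ask what the loss of Sox4, Sox11 or both does to embryonic epidermis. Sox4cKO lacks Sox4, Sox11cKO lacks Sox11 and dcKO lacks both, with 2 arrays for each genotype and 1 wild-type sample on each array. All embryos were at embryonic day 16, and the labels give the strain as 129SvEx:C57BL/6. The Krt14-Cre line crossed in was FVB/N per the study's methods. On replicate 1 the knockout carried the dye Cy5 and the wild type Cy3, and on replicate 2 the dyes were exchanged. Floxed alleles (Sox4 fl/fl, Sox11 fl/fl or both) were removed by Krt14-Cre, which is driven by the promoter of a basal keratinocyte keratin, so that cells of other origin in the peeled sheet keep their alleles. The founding floxed mice also carried Sox12-/-, and the sources do not state whether these embryos did. Nor do they state whether RNA of several embryos was pooled, or which floxed alleles the wild-type littermates carried. The labels call the 2 arrays of a genotype biological replicates. The dorsal epidermis was separated from the dermis with the enzyme dispase.

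Keratins are the intermediate filament proteins of epithelial cells, and each filament is built from a type I and a type II keratin paired together. The embryonic epidermis is covered by the periderm, a temporary outer cell layer that is shed when the barrier forms and that carries keratins otherwise typical of mucosa and simple epithelia. Krt4 and its partner Krt13 mark mucosal epithelia, Krt8 with Krt18 and Krt7 with Krt19 mark simple and glandular epithelia, and Krt6a, Krt6b, Krt16 and Krt17 appear in hair follicles and in wounded or stressed epidermis. Krt17 is also an early keratin of the embryonic epidermis.

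Several members lie side by side in the genome. In the RefSeq gene order of GRCm38.p6, Krt8 and Krt18 were neighbours on chromosome 15, Krt6a and Krt6b were neighbours on chromosome 15, and Krt16 and Krt17 were neighbours on chromosome 11. The 250 bases upstream of the start site are shown for Krt8 and Krt18, a filament pair whose values followed each other on every array, and for Krt7, another keratin of simple epithelia. They are RefSeq sequences of GRCm38.p6, read 5′ to 3′ on the strand of the gene: Krt8 is chr15:102004343-102004592 on the minus strand, Krt18 is chr15:102027966-102028215 on the plus strand, and Krt7 is chr15:101412153-101412402 on the plus strand. Such windows were matched for 4 of the 10 genes, Krt7, Krt8, Krt18 and Krt13. Capitals mark matches to the motifs searched.
Krt8: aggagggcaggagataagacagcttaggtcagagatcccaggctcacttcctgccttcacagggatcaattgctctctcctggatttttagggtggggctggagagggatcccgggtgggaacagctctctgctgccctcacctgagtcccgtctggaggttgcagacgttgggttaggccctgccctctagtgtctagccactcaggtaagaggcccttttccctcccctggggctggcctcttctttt
Krt18: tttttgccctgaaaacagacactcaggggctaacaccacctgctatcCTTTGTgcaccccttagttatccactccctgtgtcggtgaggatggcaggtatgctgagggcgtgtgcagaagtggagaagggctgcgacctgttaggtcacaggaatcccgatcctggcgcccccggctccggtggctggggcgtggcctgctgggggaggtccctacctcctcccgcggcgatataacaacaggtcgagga
Krt7: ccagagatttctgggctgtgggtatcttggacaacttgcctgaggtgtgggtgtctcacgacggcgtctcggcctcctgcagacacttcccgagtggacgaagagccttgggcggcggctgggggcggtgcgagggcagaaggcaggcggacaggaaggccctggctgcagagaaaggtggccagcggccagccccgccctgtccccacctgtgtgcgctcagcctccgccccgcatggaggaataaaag
The motifs searched on both strands were a SOX core (ACAAAG or ACAATG), AP-1 (TGAGTCA or TGACTCA, which are the same site read on either strand) and a TATA box (TATAAA). The only match in these 3 windows was ACAAAG on the reverse strand of Krt18, 203 to 198 bases before the start. Of the 2 Krt13 windows, which are not shown, 1 had no match and the other held AP-1 at 183 to 177 and at 34 to 28 bases before the start. A SOX core was found in 25.2% of all 32851 RefSeq promoter windows of this length, an AP-1 match in 4.46% and a TATA box in 12.4%. A match to letters is a description of the window and not a binding site.

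Values below are log2(knockout/wild type) of an array, so that 1 is a doubling and −1 a halving, unless they are called levels. A level is the log2 intensity of 1 channel after normalization between arrays, and it is compared only within the same probe. All 12 probes were well above background in both channels on all 6 arrays, and no spot was saturated. A gene was said to pass at a Benjamini-Hochberg adjusted p under 0.05 in limma, adjusted over all 55681 probes. With 2 arrays per genotype the number of arrays limits the precision, and 95% intervals are given. In bulk epidermis, fewer cells of a type and less RNA per cell cannot be told apart.

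The targeted genes checked the labels in part. The dimmer of the probes for Sox4 was not well above background in either knockout channel of Sox4cKO (at least 3.05-fold lower, adjusted p = 0.0284) or of dcKO (at least 2.997-fold lower, adjusted p = 0.00223), and it was 0.08 in Sox11cKO. The brighter Sox4 probe, A_55_P2121613, stayed well above background in every channel of these arrays and passed in neither (−0.42 in Sox4cKO, adjusted p = 0.802, and −0.82 in dcKO, adjusted p = 0.0768), so the probes disagree. In no genotype did a Sox11 probe exceed background in both wild-type channels, so the loss of Sox11 could not be checked on these arrays. The study reports that RT-qPCR on the isolated epidermis verified the loss of Sox4, Sox11 or both before the arrays were run. Between 37.7% and 42.3% of probes were well above background in a channel. Xist was detected on replicate 2 of Sox4cKO and of Sox11cKO in both channels, and Ddx3y, Eif2s3y and Uty on the other 4 arrays, so that replicate number, dye and the sex of the embryos cannot be told apart in the single knockouts. All 7 keratinocyte markers were well above background in every channel.

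Of the 10 keratins, 9 had a fitted value above 0 in Sox4cKO, while 7 in Sox11cKO and 8 in dcKO had one below 0. Their median was 0.49 in Sox4cKO, −0.51 in Sox11cKO and −0.90 in dcKO, where the median of all probes was within 0.01 of 0. By array the median was 0.61 and 0.30 in Sox4cKO, −1.17 and 0.02 in Sox11cKO, and −1.05 and −0.76 in dcKO. The arrays of Sox11cKO therefore disagreed, with 9 of 10 genes below 0 on replicate 1 and 5 of 10 on replicate 2. In Sox4cKO none of the 10 genes passed, as against 0.00539% of all probes, and 4 had an unadjusted p under 0.05 (3439 of 55681 probes did). In Sox11cKO none passed, as against 0% of all probes, and 5 had an unadjusted p under 0.05 (3923 of 55681 probes did). In dcKO 4 passed, as against 0.833% of all probes, and 9 had an unadjusted p under 0.05 (5509 of 55681 probes did).

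In dcKO 3 keratins fell, Krt4, Krt19 and Krt17, where 0.309% of all probes passed with a lower value. Krt16 rose, where 0.524% of all probes passed with a higher value. None of the 4 passed the log2 fold change limit of 1.5 that the study's methods add, which 0.207% of all probes passed together with the adjusted p. Krt4 lay just short of it. Calls of the 4 genes did not all survive each alternative, as given beside each gene. With the log ratio written by the scanner software none of the 4 passed, and neither did any other probe in dcKO.

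**Figure D1:**
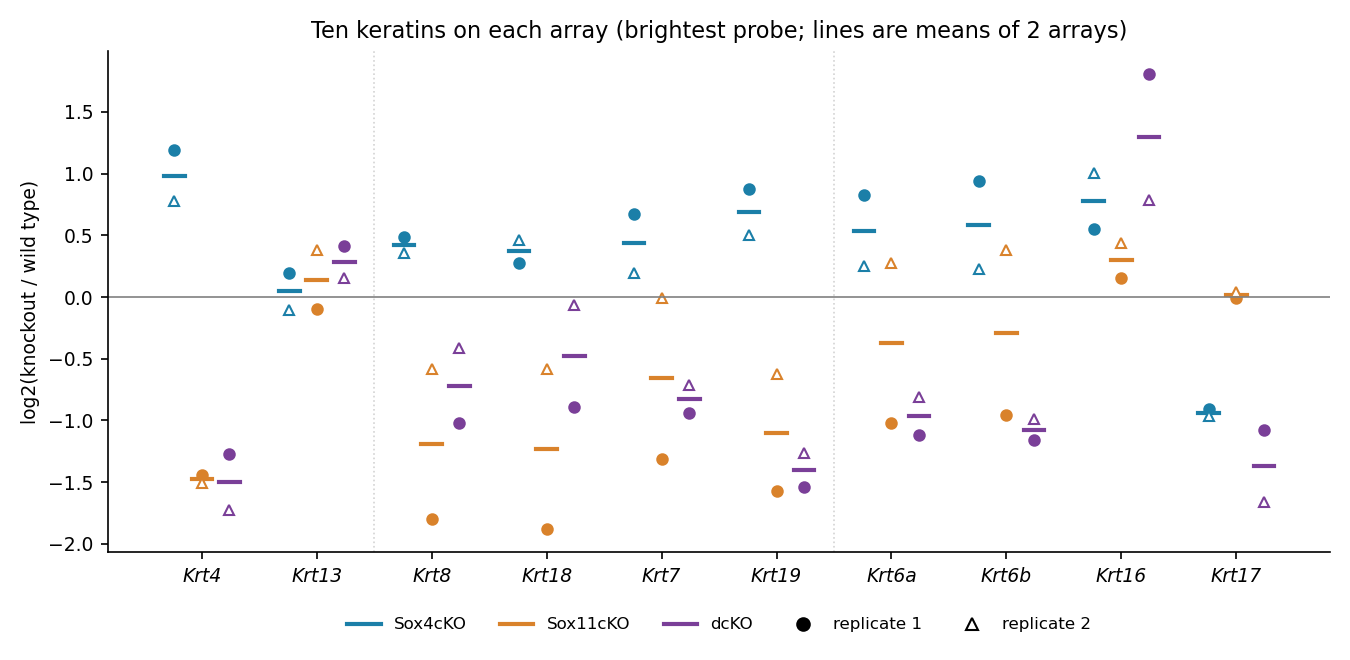
Each point is the log2(knockout/wild type) of 1 array for the brightest probe of a keratin, filled circles for replicate 1 and open triangles for replicate 2, and each line is the mean of 2 arrays. Krt4 and Krt19 sit above 0 on both Sox4cKO arrays and below 0 on the 4 Sox11cKO and dcKO arrays, while Krt16 is above 0 on all 6 arrays.

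Krt4, a type II keratin of mucosal epithelium and periderm, had the largest differences of the 10 between Sox4cKO and the other genotypes. It was 1.19 and 0.78 on the Sox4cKO arrays, −1.44 and −1.51 on the Sox11cKO arrays and −1.27 and −1.72 on the dcKO arrays. The Sox4cKO values did not overlap with those of the other genotypes, and the Sox11cKO values lay inside the dcKO range. The fitted change was −1.497 in dcKO (95% interval −1.81 to −1.19, adjusted p = 0.00174), a 2.82-fold decrease. It was −1.48 in Sox11cKO (adjusted p = 0.0951) and 0.98 in Sox4cKO (adjusted p = 0.227), neither of which passed. With a normexp offset of 50, or with no background subtraction, Krt4 passed in both single knockouts.

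The channels of Krt4 add what the ratios leave out. The wild-type levels were 6.62 and 7.48 on the Sox4cKO arrays, 9.77 and 10.76 on the Sox11cKO arrays and 7.07 and 7.58 on the dcKO arrays. Wild-type littermates therefore differed by up to 4.14 log2 units, a wider range than for 99.8% of the 18118 probes that were well above background in every channel, whose median range was 0.49. The knockout levels were 7.81 and 8.26 in Sox4cKO, 8.33 and 9.25 in Sox11cKO and 5.80 and 5.86 in dcKO. Krt4 in the Sox11cKO channels was thus below its own littermates and yet above the wild-type channels of all 4 other arrays. Only the dcKO channels were below every wild-type channel. They were close to background, with raw signals of 91 over a background of 56 on replicate 1 and 52.5 over 27 on replicate 2. The wild type of Sox4cKO replicate 1 was also dim, at 75.5 over 29.5. Ratios from such low signals depend on the background step and the offset. Levels across arrays are open to differences between arrays and dyes, and the cause of the spread among wild types was not tested.

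Krt13 is the type I partner of Krt4 in mucosa, and its 2 probes gave different accounts. Its brightest probe, A_51_P307964, was 0.20 and −0.10 in Sox4cKO, −0.10 and 0.38 in Sox11cKO and 0.42 and 0.16 in dcKO. All 3 genotypes overlapped, and the fitted change in dcKO was 0.29 (95% interval −0.09 to 0.66, adjusted p = 0.626). Its levels stayed between 10.06 and 10.96 over all 12 channels. On every Sox11cKO and dcKO array Krt4 was lower than Krt13 by this probe, by 1.35 to 1.89, and on the Sox4cKO arrays it was higher by 0.99 and 0.88. These are differences of log2 ratios and not of levels. The dimmer probe of Krt13, A_55_P2006296, gave other values: 1.27 and 0.32 in Sox4cKO, −1.69 and 0.29 in Sox11cKO and −0.17 and −0.31 in dcKO. It passed in no genotype either (adjusted p of 0.755 in Sox11cKO and higher in the others). The pair of probes correlated at r = 0.38 over the 6 arrays, and 1 of them cannot be preferred from these files.

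The keratins of simple epithelia were described next, and Krt19 was the only one of these 4 that passed in any genotype. Krt19, a type I keratin of simple epithelia, periderm and hair follicle, was 0.88 and 0.50 in Sox4cKO, −1.57 and −0.63 in Sox11cKO and −1.54 and −1.26 in dcKO. Both dcKO values lay below both Sox4cKO values. The fitted change was −1.40 in dcKO (95% interval −1.86 to −0.94, adjusted p = 0.0177), a 2.64-fold decrease, −1.10 in Sox11cKO (adjusted p = 0.557) and 0.69 in Sox4cKO (adjusted p = 0.785). Without dcKO replicate 1 the adjusted p in dcKO was 0.112, and without dcKO replicate 2 it was 0.0847, at nearly the same fold change. The wild-type levels of Krt19 were 9.91 and 10.53 on the Sox4cKO arrays, 12.22 and 12.70 on the Sox11cKO arrays and 10.53 and 10.95 on the dcKO arrays. As for Krt4, the littermates of Sox11cKO were the highest, and their range of 2.79 was wider than for 99.1% of probes. The dcKO channels, at 8.99 and 9.69, were again below every wild-type channel, while the Sox11cKO channels were at 10.65 and 12.08.

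Krt7, a type II keratin of glandular and simple epithelia, had steady wild-type levels, between 10.04 and 10.40. It was 0.67 and 0.20 in Sox4cKO, −1.31 and −0.01 in Sox11cKO and −0.94 and −0.71 in dcKO. The Sox11cKO arrays spanned the dcKO values, and the Sox4cKO values were the highest. The fitted change in dcKO was −0.82 (95% interval −1.39 to −0.26, adjusted p = 0.292) and did not pass.

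Krt8 and Krt18, the filament pair of simple epithelia, moved in step. Krt8 was 0.49 and 0.36 in Sox4cKO, −1.80 and −0.58 in Sox11cKO and −1.02 and −0.42 in dcKO. Krt18 was 0.28 and 0.46 in Sox4cKO, −1.88 and −0.58 in Sox11cKO and −0.89 and −0.07 in dcKO. Both were above 0 in Sox4cKO and below 0 on every other array, and replicate 1 of Sox11cKO was the lowest array for each. The pair differed by at most 0.35 on any array and correlated at r = 0.98 over the 6 arrays, where both genes are read from the same extracts on each array. Neither passed in any genotype. The fitted change of Krt8 was −1.19 in Sox11cKO (adjusted p = 0.510) and −0.72 in dcKO (adjusted p = 0.254), and that of Krt18 was −1.23 in Sox11cKO (adjusted p = 0.359) and −0.48 in dcKO (adjusted p = 0.441). With no background subtraction Krt18 passed in Sox11cKO. The wild-type levels of Krt8 were 8.92 and 8.22 on the Sox11cKO arrays and between 7.51 and 7.65 on the other 4. Those of Krt18 were 11.33 and 10.42 on the Sox11cKO arrays and between 9.53 and 9.97 on the others. The higher littermate levels on the Sox11cKO arrays were thus seen for Krt4, Krt19, Krt8 and Krt18, but not for Krt7.

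**Figure D2:**
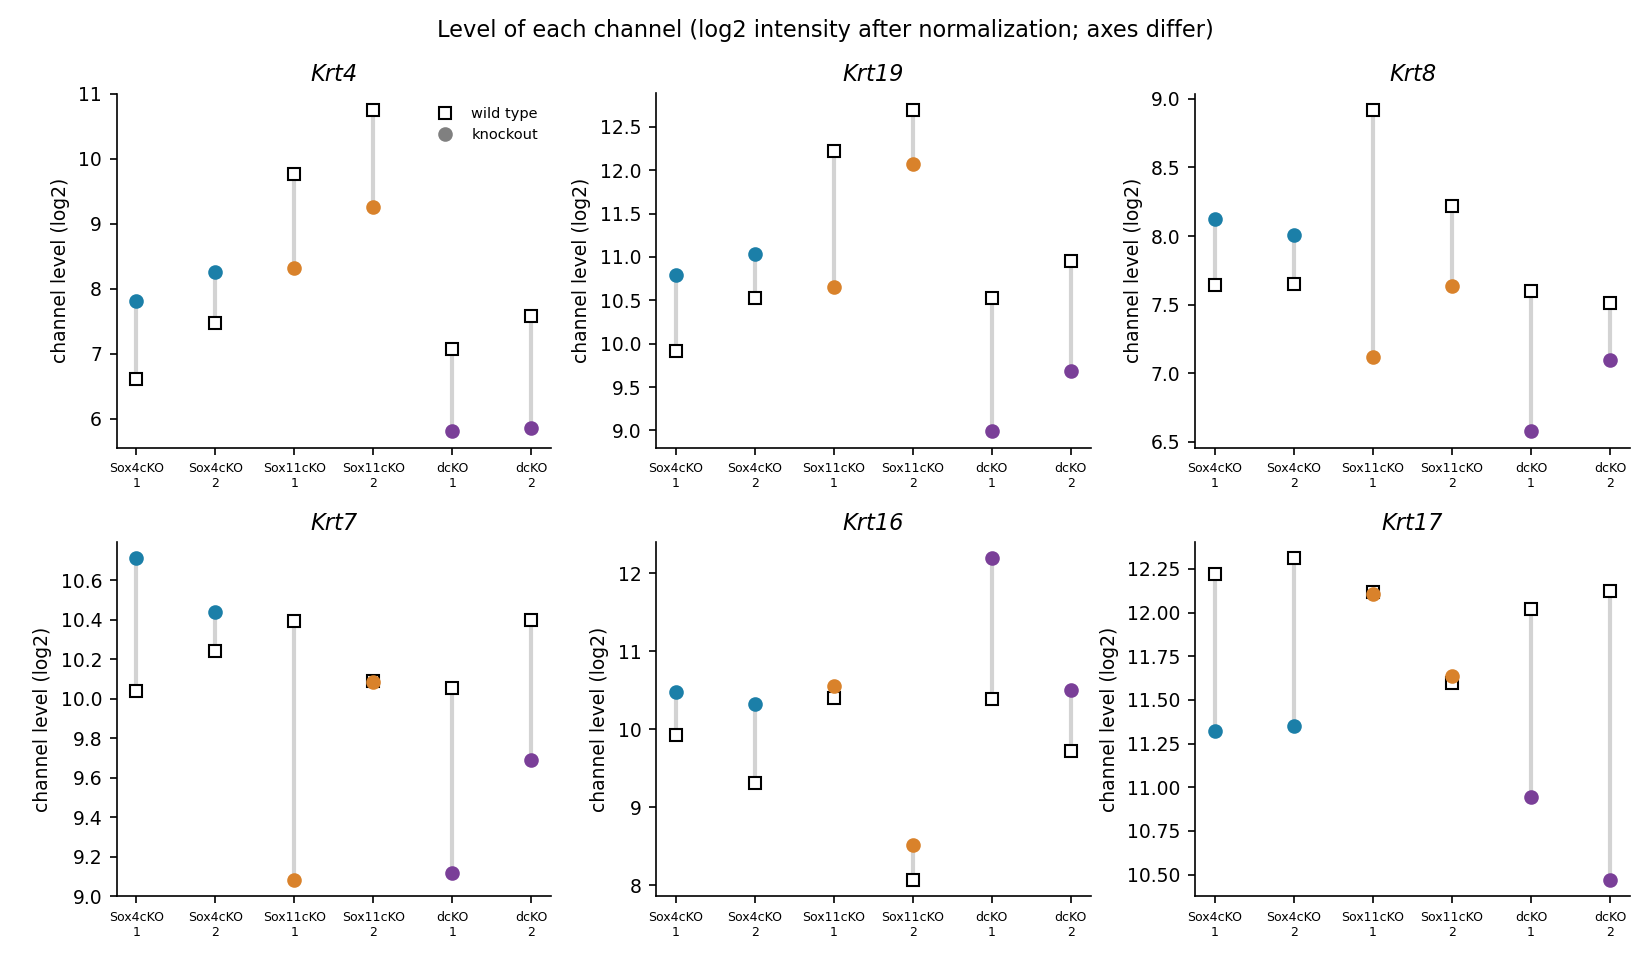
Channel levels (log2 intensity after normalization) of 6 keratins on each array, open squares for wild type and filled circles for knockout, joined by a line whose length is the log2 ratio. The wild-type squares of Krt4 reach from 6.62 to 10.76 and are highest on the Sox11cKO arrays, whereas those of Krt7 stay between 10.04 and 10.40.

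The stress keratins did not all move together. In dcKO Krt17 passed with a lower value and Krt16 with a higher one, the latter not in every alternative. Krt6a and Krt6b did not pass, though their brightest probes were below 0 on both dcKO arrays. Krt17, a type I keratin of hair follicle, early epidermis and wounds, was −0.91 and −0.97 in Sox4cKO, −0.01 and 0.04 in Sox11cKO and −1.08 and −1.66 in dcKO. The 3 genotypes did not overlap. The fitted change was −1.37 in dcKO (95% interval −1.71 to −1.03, adjusted p = 0.00507), a 2.58-fold decrease, −0.94 in Sox4cKO (adjusted p = 0.301) and 0.02 in Sox11cKO (95% interval −0.32 to 0.36, adjusted p = 0.990). Krt17 is the 1 member whose value was below 0 on both Sox4cKO arrays. Its wild-type levels were alike, between 11.60 and 12.31, and the knockout levels were 11.32 and 11.35 in Sox4cKO and 10.94 and 10.47 in dcKO. In Sox4cKO it passed with an offset of 50 or with no background subtraction, and in dcKO the adjusted p was 0.0787 without dcKO replicate 2.

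Krt16, a type I keratin that pairs with Krt6 in stressed epidermis, was above 0 on every array. It was 0.55 and 1.01 in Sox4cKO, 0.16 and 0.44 in Sox11cKO and 1.81 and 0.78 in dcKO. The dcKO and Sox4cKO values overlapped, and the Sox11cKO values were the lowest. The fitted change was 1.297 in dcKO (95% interval 0.77 to 1.82, adjusted p = 0.0482), a 2.46-fold increase, 0.78 in Sox4cKO (adjusted p = 0.785) and 0.30 in Sox11cKO (adjusted p = 0.833). The rise in dcKO rests on 1 array: it was 0.60 without dcKO replicate 1 (adjusted p = 0.620). It was also lost without either Sox11cKO array (adjusted p = 0.0603), with no replicate block (adjusted p = 0.0536), with dim probes left out (adjusted p = 0.0680) and with the mean of all probes of a gene (adjusted p = 0.0581). The wild-type levels of Krt16 ranged from 8.07 on Sox11cKO replicate 2 to 10.40, and the highest of all channels was dcKO replicate 1 at 12.19.

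Krt6a and Krt6b, the type II stress keratins, are near-identical copies, so their probes may share signal, and which transcript each probe reads was not tested. Krt6a was 0.83 and 0.25 in Sox4cKO, −1.02 and 0.28 in Sox11cKO and −1.12 and −0.81 in dcKO. The brighter probe of Krt6b, A_51_P126275, was 0.94 and 0.23 in Sox4cKO, −0.96 and 0.38 in Sox11cKO and −1.16 and −0.99 in dcKO. The 2 genes differed by at most 0.18 on any array (r = 0.99), and the Sox11cKO arrays had opposite signs for each. The fitted change in dcKO was −0.97 for Krt6a (95% interval −1.55 to −0.38, adjusted p = 0.209) and −1.07 for Krt6b (95% interval −1.71 to −0.44, adjusted p = 0.189). The dimmer Krt6b probe, A_66_P101935, was −0.03 and −0.06 in dcKO and did not show the lower values. It was 0.66 and 0.66 in Sox4cKO and −0.04 and 2.01 in Sox11cKO. The 2.01 went with a wild-type level of 5.83 on that array, against 7.30 to 8.31 in the other wild-type channels.

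**Figure D3:**
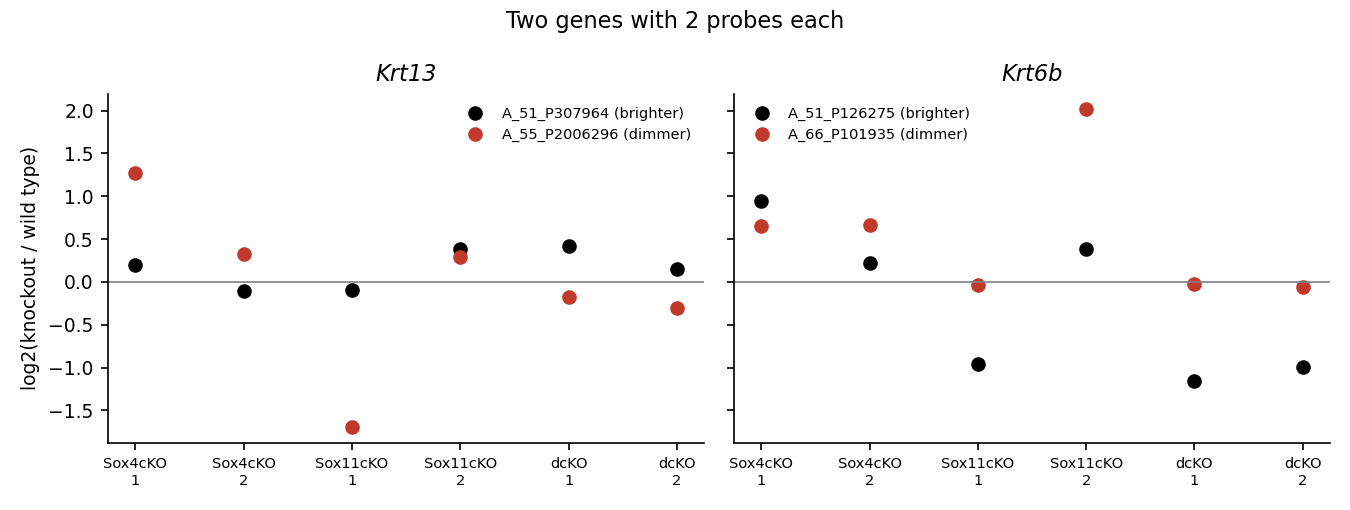
Log2(knockout/wild type) on each array for both probes of Krt13 and of Krt6b, black for the brighter probe and red for the dimmer one. The probes of Krt13 part most on Sox11cKO replicate 1 (−0.10 and −1.69), and those of Krt6b on Sox11cKO replicate 2 (0.38 and 2.01).

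The stress keratins were also set against each other within arrays. Krt16 was higher than Krt17 in log2 ratio on all 6 arrays, by 1.46 and 1.97 in Sox4cKO, 0.16 and 0.40 in Sox11cKO and 2.89 and 2.44 in dcKO. These neighbours on chromosome 11 thus differed most in dcKO and least in Sox11cKO. The log2 ratio of Krt6a minus that of its partner Krt16 was −2.93 and −1.59 in dcKO, −1.17 and −0.16 in Sox11cKO and 0.28 and −0.76 in Sox4cKO. Over the 6 arrays Krt16 correlated with Krt17 at r = −0.57 and with Krt6a at r = −0.31. Krt6a instead correlated with Krt7 at r = 0.97 and with Krt19 at r = 0.93, from which it differed by at most 0.29 and 0.90 on an array. These are descriptions over 6 arrays, and on each array all genes are read from the same pair of extracts.

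**Figure D4:**
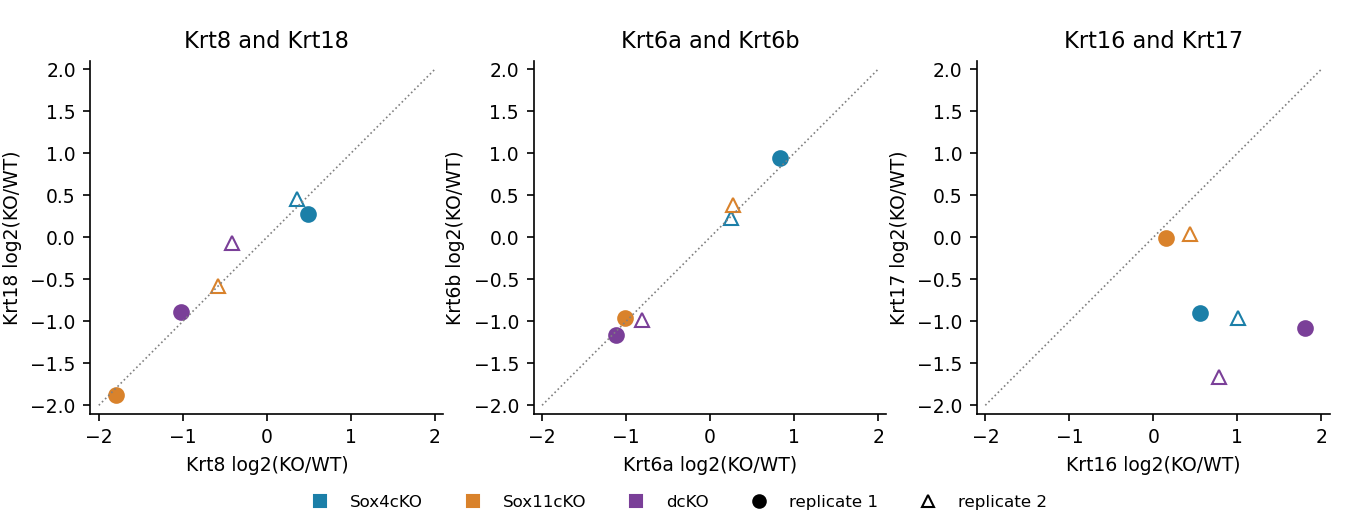
Log2(knockout/wild type) of 1 keratin against another on each of 6 arrays, coloured by genotype, with the line of equal values dotted. Krt8 and Krt18 stay within 0.35 of the line and Krt6a and Krt6b within 0.18, while for Krt16 and Krt17 all 6 points lie to the right of it.

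The fitted changes were then compared between genotypes. Each array has a wild-type channel of its own, but the comparisons share the arrays of a genotype and are not independent. Between the single knockouts 1 of the 10 genes passed, Krt4, as against 0.0018% of all probes. The log2 ratio of Krt4 was higher in Sox4cKO than in Sox11cKO by 2.46 (95% interval 2.02 to 2.90, adjusted p = 0.0353). Its knockout levels, however, were lower in Sox4cKO (7.81 and 8.26) than in Sox11cKO (8.33 and 9.25). The wild-type levels of Krt4 were 6.62 and 7.48 on the Sox4cKO arrays and 9.77 and 10.76 on the Sox11cKO arrays. Krt4 was the only probe of the array that passed in this contrast. A further 6 keratins had an unadjusted p under 0.05 in it (7 of 10 in all, against 2939 of 55681 probes). Of these, Krt7, Krt8, Krt18, Krt19 and Krt6a had higher ratios in Sox4cKO, while Krt17 had a lower one (a difference of −0.95). The difference was lost without Sox4cKO replicate 1 (adjusted p = 0.0741), without Sox11cKO replicate 1 (0.0928), without Sox11cKO replicate 2 (0.173), with no replicate block (0.103) and with dim probes left out (0.116).

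Krt4 and Krt19 differed between dcKO and Sox4cKO, where 0.0198% of all probes passed with a lower value in dcKO. Krt4 was lower in dcKO than in Sox4cKO by 2.48 log2 units (a difference of −2.48, 95% interval −2.92 to −2.05, adjusted p = 0.00164). Krt19 was lower by 2.09 (a difference of −2.09, 95% interval −2.74 to −1.44, adjusted p = 0.0431). For Krt19 the adjusted p was 0.218 without Sox4cKO replicate 1, 0.0627 with no replicate block, 0.0895 with dim probes left out and 0.0529 with the mean of all probes of a gene. Krt17, which was below 0 in both genotypes, differed by −0.43 (95% interval −0.91 to 0.05, adjusted p = 0.841), and Krt16 by 0.52 (95% interval −0.23 to 1.26, adjusted p = 0.878).

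Between dcKO and Sox11cKO none of the 10 genes passed, as against 0.163% of all probes, and 3 had an unadjusted p under 0.05 (4016 of 55681 probes did). For Krt4 the difference was −0.02 (95% interval −0.46 to 0.41), and it was 0.30 with an offset of 50 and 0.17 with no background subtraction, so that its direction is not settled. Krt17 had the largest difference of the 10, −1.38 (95% interval −1.86 to −0.90, adjusted p = 0.0647), and it passed with an offset of 50 and with no background subtraction. For Krt19 it was −0.30 (95% interval −0.95 to 0.35), and for Krt18 0.75 (95% interval 0.16 to 1.35, adjusted p = 0.631). Against the sum of the single knockouts, dcKO had no keratin of the 10 that passed, as against 0.088% of all probes, and 4 had an unadjusted p under 0.05 (3553 of 55681 probes did). The largest departures from the sum were −1.37 for Krt6b (95% interval −2.46 to −0.27, adjusted p = 0.760) and −1.14 for Krt6a (95% interval −2.15 to −0.12, adjusted p = 0.768).

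**Figure D5:**
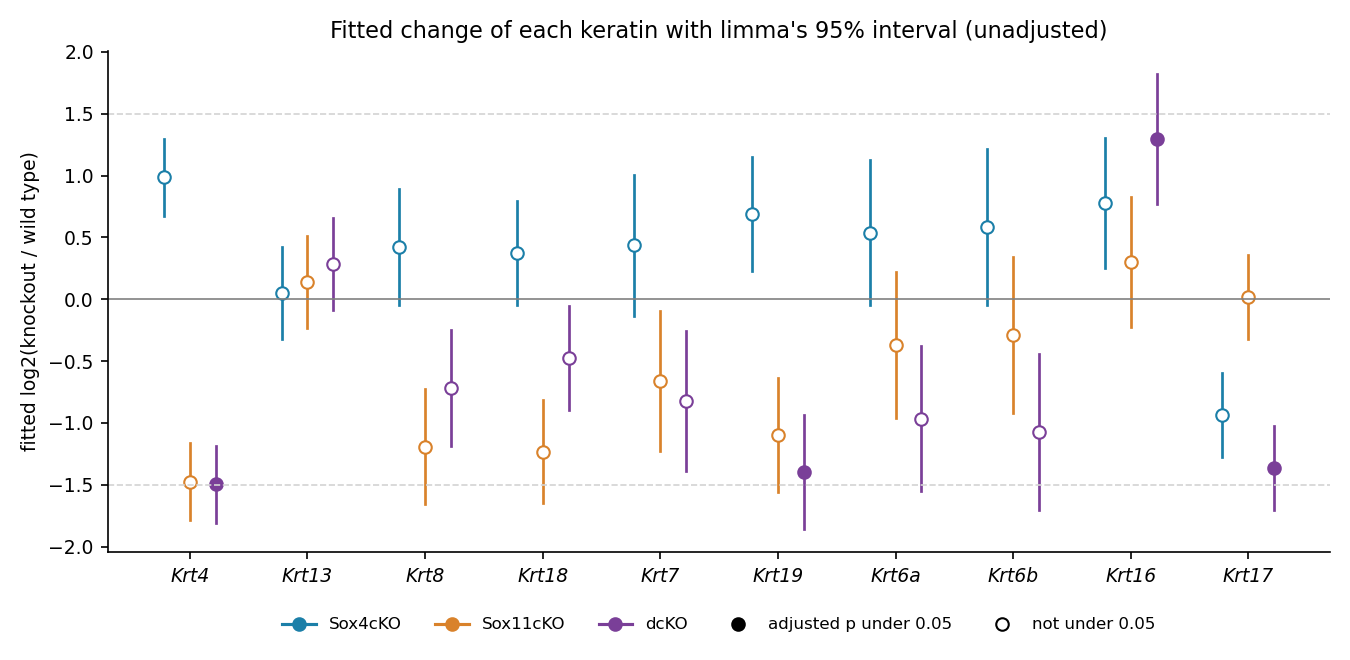
Fitted log2(knockout/wild type) of each keratin by genotype with limma's unadjusted 95% interval, filled where the adjusted p was under 0.05. Only Krt4, Krt19, Krt16 and Krt17 in dcKO are filled, and the dashed lines at 1.5 and −1.5 mark the fold limit of the study's methods.

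Other keratins were described by counts. Of the 6 keratins of basal and suprabasal epidermis (Krt5, Krt14, Krt15, Krt1, Krt10 and Krt2), which build the filaments of ordinary keratinocytes, none passed in any genotype, and their median was 0.12 in Sox4cKO, 0.22 in Sox11cKO and 0.16 in dcKO. Of all 43 other keratin genes, 29 were well above background in some channel. In dcKO 3 of the 43 passed, all of them higher, where 0.524% of all probes passed with a higher value and 0.309% with a lower one. None passed in the single knockouts. Krt72, a keratin of the inner root sheath of the hair follicle, was 2.57 and 2.55 on the dcKO arrays (fitted 2.56, adjusted p = 9.65e-05). Krt23 was 1.11 and 1.59 (fitted 1.35, adjusted p = 0.0216), and Krt80 was 0.66 and 0.79 (fitted 0.73, adjusted p = 0.0407). Krt72 also passed in dcKO against Sox4cKO (2.96, adjusted p = 0.00096), against Sox11cKO (3.09, adjusted p = 0.000614) and against the sum of the single knockouts (3.49, adjusted p = 0.00178).

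The genes most like Krt4 over the 6 arrays were found among 580 genes that varied and were above background on all arrays. They were Krt35, a keratin of the hair shaft (r = 0.98), Krt19 (r = 0.93), Glul, which encodes glutamine synthetase (r = 0.92), Upk1b (r = 0.89) and Pllp (r = 0.88). Of the other members, Krt7 (r = 0.80), Krt8 (r = 0.79), Krt6a (r = 0.76) and Krt6b (r = 0.75) and Krt18 (r = 0.67) were lower. Krt16 had r = 0.01 and Krt17 r = −0.16. For Krt13 the probes differed, with r = −0.31 for the brighter and r = 0.69 for the dimmer one. Upk1b, a membrane protein of urothelium, was 0.72 and 0.66 in Sox4cKO, −1.71 and −0.41 in Sox11cKO and −1.60 and −1.43 in dcKO. It was above 0 where Krt4 was above 0 and below 0 where Krt4 was below 0. These correlations are over 6 arrays and were not tested.

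Lists of related genes were described in the same way. None of the 6 genes linked to periderm formation, the 10 genes of simple epithelium, the 10 wound and stress genes of keratinocytes on the array (of 12 listed) or the 8 genes of keratin linker proteins passed in any genotype. In dcKO their medians were −0.02, 0.03, 0.06 and −0.02, against −0.90 for the 10 keratins. In a channel, 8 of the 10 simple epithelium genes and 6 to 8 of the 10 wound and stress genes were well above background. The medians of these lists therefore include undetected genes, while all 10 keratins were well above background in every channel. Of all probes, 0.833% passed in dcKO, 0.00539% in Sox4cKO and 0% in Sox11cKO, so not passing does not mean unchanged. Within the lists, fitted values in dcKO ran from −0.36 to 0.18, −0.54 to 0.12, −0.62 to 0.81 and −0.59 to 0.24. Cldn3 was the lowest simple epithelium gene in dcKO (−0.58 and −0.50 by array) and in Sox11cKO (−1.59 and −0.89). It was 0.27 and 0.06 in Sox4cKO. Cldn3 was picked for its low values and does not stand for its list. Of the 10 simple epithelium genes, 3 had a fitted value below 0 in dcKO and 7 above 0. In Sox11cKO 6 were below 0 and 4 above 0. The lists were chosen with earlier results of these data known.

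Markers of other cells were given beside the keratins. Merkel cells, touch cells of the epidermis that carry Krt8 and Krt18, had 4 of 6 markers above background in some channel, and the transcription factors Isl1 and Sox2 were above it in none. Their summed intensity was 191 to 275 in all 12 channels. Dermal fibroblast markers had medians of −3.50 and 0.87 in Sox4cKO, 1.11 and −0.68 in Sox11cKO, and −1.84 and −1.85 in dcKO. On both dcKO arrays their medians lay below 0, as those of the keratins did. On replicate 1 of Sox4cKO and on both Sox11cKO arrays the signs were opposite, with keratin medians of 0.61, −1.17 and 0.02. Both medians were above 0 on replicate 2 of Sox4cKO (0.30 for the keratins). On each dcKO array 5 of the 6 fibroblast markers were below 0 and 1, Dcn, was above it. The summed intensity of the 6 was 9179 and 7674 in the dcKO channels against 12223 and 8429 in the wild-type channels of those arrays. Skeletal muscle markers had medians of −1.88 and 0.13 in Sox4cKO, 0.06 and 0.03 in Sox11cKO and 0.00 and −0.73 in dcKO, and the wild type of Sox4cKO replicate 1 had a summed intensity of 1225 where the other channels had 203 to 367. No marker of these lists passed in any genotype, and neither did any of blood vessels, red blood cells, immune cells, melanocytes or hair follicle buds. Few probes passed at all, 0.833% in dcKO, 0.00539% in Sox4cKO and 0% in Sox11cKO, so not passing does not mean unchanged. The part of these cells in the keratin values was not tested.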

How the data were processed

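RNA of epidermis of embryonic day 16 was measured on 6 two-colour Agilent arrays, 2 for each of Sox4cKO, Sox11cKO and dcKO, each against wild-type littermates. The labels gave each array's group, replicate number and dyes. The authors extracted scans with Agilent Feature Extraction 11.0.1.1 and, per the labels, used limma 3.5. The deposited scanner files hold median signals as intensity on a linear scale, not normalized, and a log10 ratio of red over green computed by Feature Extraction. The deposited series table holds log2 values, knockout over wild type, which per the authors' methods were background corrected by normexp with an offset of 16 and normalized by loess, with a colour effect removed by ComBat. Recomputed here from the scanner files, values without any colour adjustment had a slope of 1.00 against the table on each array. No trace of the ComBat step was therefore seen in the table. Scale and direction were settled by this comparison.

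The table's 55681 non-control probes were fitted in limma 3.58.1 (R 4.3.3) with 1 coefficient per genotype and 1 dye coefficient (6.65 prior and 2 residual degrees of freedom), and p-values were two-sided and Benjamini-Hochberg adjusted over all probes. The dye coefficient is also the replicate block, since replicate 1 always had the knockout in Cy5. Same-numbered arrays deviated together from their genotype means (r = 0.26, 0.31 and 0.33), so the block was kept. The code was tested on simulated data. All arrays lay on 1 slide and were scanned on 1 day, so no slide effect could be fitted. Channel levels were computed with normexp, loess and Aquantile and are open to dye bias. The bound for the dim Sox4 probe sets the wild-type mean against the lowest signal well above background or the probe's own signal, whichever was higher. Array names came from the SystematicName accession through RefSeq symbols, and 28331 probes received one. The array was annotated on another assembly than GRCm38.p6, so no probe coordinates are given. The members, lists and tests were chosen with earlier results of these data known. All 10 keratins were named, passing genes of the other lists (at most 4 each), and the 5 genes best correlated with Krt4 among those with an SD of at least 0.5 over the arrays. Cldn3 was also named, as the lowest simple epithelium gene in Sox11cKO and dcKO. Alternatives were the offset (50), no background subtraction, the Feature Extraction ratio, recomputed values without outlier spots, no replicate block, dim probes left out (well above background on under 2 arrays), the mean of all probes of a gene, and each array left out.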

Additional observations from a re-analysis of the deposited data

Results flagged for a closer look

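3 differences between genotypes passed the test of the difference itself in limma. The log2 ratio of Krt4 was higher in Sox4cKO than in Sox11cKO by 2.46 (adjusted p = 0.0353). It was above 0 on both Sox4cKO arrays and below 0 on both Sox11cKO arrays. The knockout levels of Krt4 were nonetheless lower in Sox4cKO (7.81 and 8.26) than in Sox11cKO (8.33 and 9.25). Krt4 also differed between dcKO and Sox4cKO, by −2.48 (adjusted p = 0.00164), with both dcKO arrays below both Sox4cKO arrays. Krt19 differed between dcKO and Sox4cKO by −2.09 (adjusted p = 0.0431), likewise with both dcKO arrays below both Sox4cKO arrays. Of all probes, 0.0018% passed for Sox4cKO minus Sox11cKO, and 0.0198% passed with a lower value for dcKO minus Sox4cKO. The Krt4 difference between the single knockouts and the Krt19 difference were lost with no replicate block and with dim probes left out. With the Feature Extraction ratio none of the 3 passed.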

How the results depend on the processing

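Over the 10 keratins in 3 genotypes and 3 differences, the alternatives that kept all arrays left 390 values in the same direction and on the same side of the threshold, took 15 below it, brought 9 past it and reversed 6. Leaving out 1 array gave 311, 10, 16 and 23. Values recomputed without outlier spots changed no call. With no replicate block the genes passing were 3 in dcKO (4 with it), 0 for Sox4cKO minus Sox11cKO (1 with it) and 1 for dcKO minus Sox4cKO (2 with it), and the block changed no other count. With an offset of 50, 2 genes passed in Sox4cKO (Krt4 and Krt17), 1 in Sox11cKO (Krt4) and 1 for dcKO minus Sox11cKO (Krt17). With no background subtraction, 2 passed in Sox4cKO (Krt4 and Krt17), 2 in Sox11cKO (Krt4 and Krt18) and 1 for dcKO minus Sox11cKO (Krt17). With the Feature Extraction ratio 0 passed in dcKO, for Sox4cKO minus Sox11cKO and for dcKO minus Sox4cKO, and its fit had 0.581 prior degrees of freedom and 0 of 55681 probes passing in dcKO. With dim probes left out 0 passed for Sox4cKO minus Sox11cKO and 1 for dcKO minus Sox4cKO, and with the mean of all probes 1 passed for dcKO minus Sox4cKO. With 1 array left out, the genes passing were 2 to 6 in dcKO, 0 to 1 in Sox4cKO, 0 to 2 in Sox11cKO, 0 to 1 for Sox4cKO minus Sox11cKO, 1 to 2 for dcKO minus Sox4cKO, 0 to 1 for dcKO minus Sox11cKO and 0 for dcKO minus the sum. A genotype left with 1 array is assumed to vary like the others. Krt4 for dcKO minus Sox11cKO reversed to 0.30 with an offset of 50 and 0.17 with no background subtraction. With the mean of all probes Krt13 reversed to −0.28 in Sox11cKO, 0.70 for Sox4cKO minus Sox11cKO and −0.40 for dcKO minus Sox4cKO, and Krt6b reversed to 0.35 in Sox11cKO, where their probes differ. With 1 array left out, fitted values in Sox4cKO ran from −0.19 to 1.06 for Krt7, −0.097 to 0.94 for Krt8, −0.0701 to 0.81 for Krt18, −0.16 to 0.25 for Krt13, −0.15 to 1.23 for Krt6a and −0.15 to 1.32 for Krt6b. With 1 array left out, fitted values for Sox4cKO minus Sox11cKO ran from −0.47 to 0.28 for Krt13. With 1 array left out, fitted values in Sox11cKO ran from −1.37 to 0.0556 for Krt7, −1.09 to 0.34 for Krt6a, −1.09 to 0.52 for Krt6b, −0.24 to 0.52 for Krt13 and −0.17 to 0.20 for Krt17. With 1 array left out, fitted values for dcKO minus Sox11cKO ran from −0.0165 to 0.96 for Krt8, −0.23 to 0.52 for Krt13, −0.21 to 0.16 for Krt4, −0.88 to 0.55 for Krt7, −0.80 to 0.20 for Krt19, −1.31 to 0.12 for Krt6a and −1.59 to 0.021 for Krt6b. With 1 array left out, fitted values for dcKO minus Sox4cKO ran from −0.18 to 1.22 for Krt16. The cause of these changes was not tested. The number of arrays limits every comparison.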
